A study of Mus musculus with 8 samples.

Results

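The 34 genes described here encode ion channels and calcium-handling proteins of the vessel wall: 7 voltage-gated calcium channel subunits, 10 potassium channel subunits, 7 TRP and other channels, and 10 proteins of the calcium stores, calcium pumps and store-operated entry. They were taken by gene symbol from the count table, which lists 24411 gene names, and all 34 were found there. Poly(A) RNA was sequenced from whole aortas of 8 mice. All 8 lacked apolipoprotein E (ApoE-/-), carried the caIKK2 transgene, received tamoxifen (1 mg per 20 g of body weight on 5 days) and ate a Western-type diet for 12 weeks. In the 5 caIKK2EC mice, the tamoxifen-dependent recombinase BMX-CreERT2, which acts in arterial endothelium, had switched on caIKK2, a constitutively active form of the NF-κB-activating kinase IKK2. The 3 Control mice were Cre-negative littermates, so they too carried the silent transgene. The series describes activation early or late in atherosclerosis, and the sources used here do not say which applies to these mice. The mice were 18 or 19 weeks old. Control 3 was the only male and the only Control of 19 weeks, the age also of caIKK2EC 2, 4 and 5. Ikbkb, the gene of IKK2, was higher in every caIKK2EC library than in every Control, with a log2 fold change of 0.30 (adjusted p 0.237 in edgeR's test, described below). The column names put the 3 Controls and caIKK2EC 1 on sequencing lane 7 and caIKK2EC 2 to 5 on lane 8.

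Calcium sets the tone of an artery. In arterial smooth muscle, L-type calcium channels let calcium in when the membrane depolarizes, and the sarcoplasmic reticulum adds to it through inositol trisphosphate and ryanodine receptors. Potassium channels hold the membrane potential negative and so limit that entry, while SERCA pumps refill the store and plasma membrane pumps carry calcium out of the cell. TRP and PIEZO channels respond to stretch, lipids and calcium in muscle and in endothelium, and calcium in endothelial cells drives nitric oxide release. The transgene was switched on in endothelium, whereas most of the 34 genes are best known from smooth muscle.

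Library totals were 23461655 to 30808502 counts. Values are counts scaled to library size (CPM) with TMM factors, which even out differences in library composition, and differences are log2 fold changes of caIKK2EC over Control, negative where caIKK2EC was lower. Summed markers of contractile smooth muscle (12 genes, Acta2, Myh11 and Tagln among them) were 21865 to 42136 CPM in Controls and 11858 to 24782 CPM in caIKK2EC. All 12 had a lower caIKK2EC mean, and DESeq2 called 2 of them, Myh11 and Synpo2. Summed markers of macrophages (11 genes, Cd68, Adgre1 and Csf1r among them) were 2237 to 7307 CPM in Controls and 8900 to 12502 CPM in caIKK2EC, higher without overlap in 11 of 11. Endothelial markers (10 genes, Pecam1, Cdh5 and Tie1 among them) summed to 1593 to 3222 and 2667 to 3350 CPM. They were divided, 6 with a log2 fold change above 0 and 4 below, with a median of 0.10. Control 3 had the highest contractile sum and the lowest macrophage and endothelial sums. In whole aorta, fewer cells of a type and less RNA per cell cannot be told apart, and the part of these cell markers in the results below was not tested.

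The promoters of 4 members differ widely in CG content and motif: Casq1, the member with the largest difference, Kcnma1 and Kcnmb1, whose products form 1 channel, and Trpc6. RefSeq promoters (GRCm38.p6, 250 bases before to 50 after the start) matched 27 of the 34 members, with 36 promoters. Cacna1g, Cacna1h, Kcnk3, Trpm4, Ryr3, Itpr1 and Atp2a2 did not match. In the first 3 sequences capitals mark CG dinucleotides, and in the last they mark a CArG box, the DNA element of serum response factor, a regulator of muscle genes. They lie at chr1:172219846-172220145, minus strand, at chr14:24004156-24004455, minus strand, at chr11:33962763-33963062, plus strand, and at chr9:8543892-8544191, plus strand, and each is written 5′ to 3′ on its gene's strand.
Casq1: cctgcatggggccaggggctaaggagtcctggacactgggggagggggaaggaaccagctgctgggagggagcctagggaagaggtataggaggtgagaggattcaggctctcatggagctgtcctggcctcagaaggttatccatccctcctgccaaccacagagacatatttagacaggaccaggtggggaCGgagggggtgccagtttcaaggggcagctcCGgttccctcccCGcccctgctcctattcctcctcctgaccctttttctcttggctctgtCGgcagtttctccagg
Kcnma1: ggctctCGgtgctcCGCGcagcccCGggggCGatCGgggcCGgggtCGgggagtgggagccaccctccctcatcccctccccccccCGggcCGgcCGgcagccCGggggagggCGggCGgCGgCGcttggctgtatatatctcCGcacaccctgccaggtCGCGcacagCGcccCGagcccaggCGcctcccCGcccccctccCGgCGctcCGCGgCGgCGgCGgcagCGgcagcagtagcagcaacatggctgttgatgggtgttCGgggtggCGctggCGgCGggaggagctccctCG
Kcnmb1: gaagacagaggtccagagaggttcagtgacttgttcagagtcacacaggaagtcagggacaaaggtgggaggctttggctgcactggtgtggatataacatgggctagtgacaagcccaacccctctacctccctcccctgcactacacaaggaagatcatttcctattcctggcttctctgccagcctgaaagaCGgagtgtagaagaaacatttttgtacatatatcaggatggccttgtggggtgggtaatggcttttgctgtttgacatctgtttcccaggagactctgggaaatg
Trpc6: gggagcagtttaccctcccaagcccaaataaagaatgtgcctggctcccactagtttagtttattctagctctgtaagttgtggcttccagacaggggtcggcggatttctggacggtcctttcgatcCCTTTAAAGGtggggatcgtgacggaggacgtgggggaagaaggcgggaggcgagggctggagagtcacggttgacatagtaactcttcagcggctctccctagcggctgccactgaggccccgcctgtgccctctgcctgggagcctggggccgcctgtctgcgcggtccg
The Casq1 promoter held 4 CG dinucleotides and the Kcnmb1 promoter 1, whereas the Kcnma1 promoter held 36. The median was 17.5 over the 36 member promoters, with a range of 1 to 63, and 7 over all 32851 promoters in the table. The CArG box was searched on both strands as CC, 6 letters that are each A or T, and GG. It was found in 1 of the 36 member promoters, that of Trpc6, where CCTTTAAAGG began at position -122 from the start, and in 1.63% of all promoters. A window without a match says only that these letters are not in it.

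Most of the 34 genes had a lower mean level in caIKK2EC aortas, including all 7 calcium channel genes. Of the 33 members that passed the filter on low counts, 24 had a log2 fold change below 0, or 72.7%, against 52.6% of all 14679 genes tested, and 9 were above 0, against 47.4%. Their median was -0.32, against -0.02 over all genes. The medians by class were -0.40 for calcium channels (7 of 7 below 0), -0.49 for stores and pumps (7 of 9), -0.19 for potassium channels (7 of 10) and 0.17 for TRP and other channels (3 of 7). Ryr3, a ryanodine receptor, did not pass the filter and lay between 0.07 and 0.37 CPM. These 4 medians were not tested against each other.

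**Figure D1:**
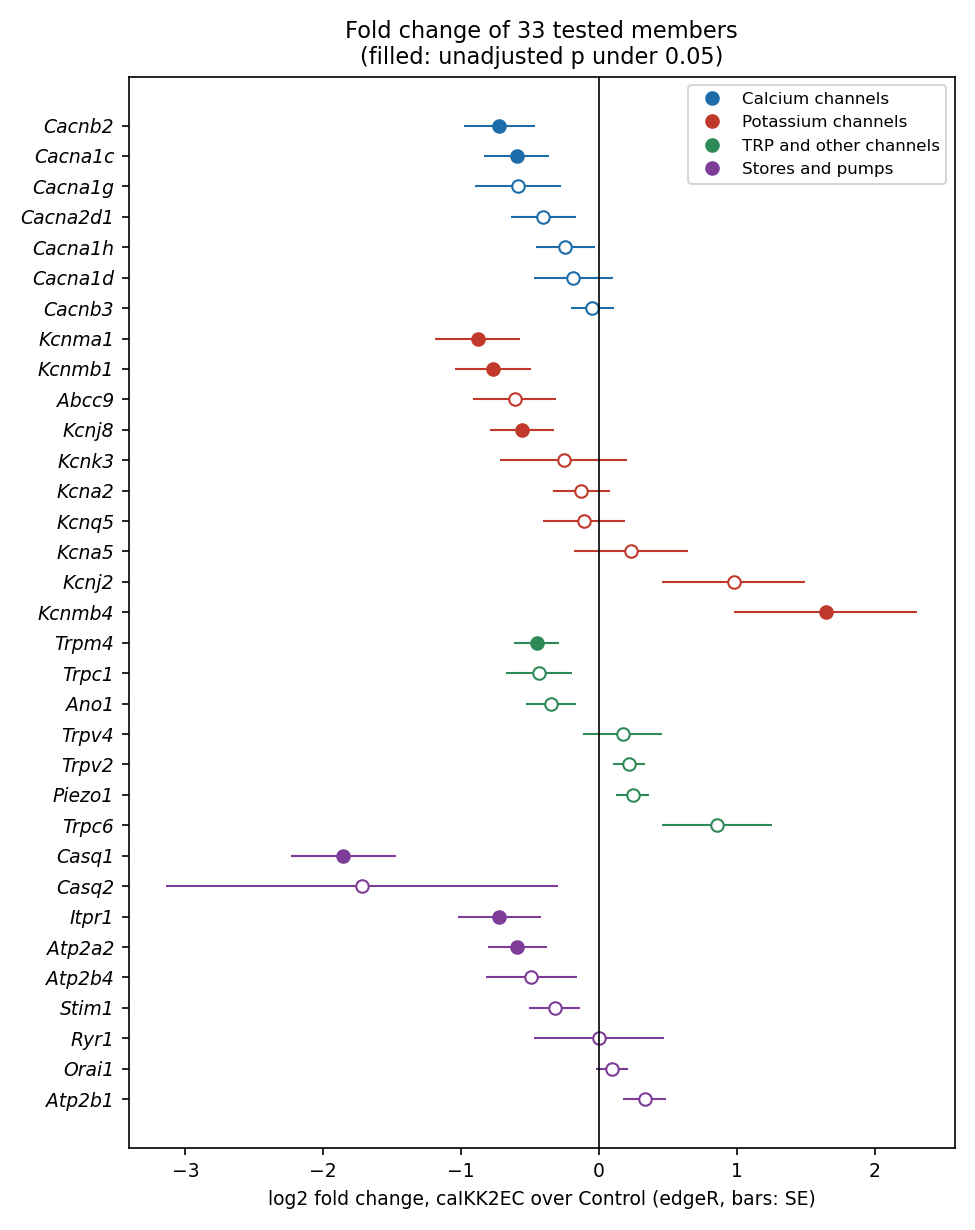
The log2 fold change of caIKK2EC over Control from edgeR is plotted for the 33 tested members, grouped by class, with bars of 1 standard error. All 7 calcium channel genes lie below 0, and Casq1 at -1.86 is farthest to the left.

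Few of these differences stood out from the spread between libraries. edgeR's quasi-likelihood test with Benjamini-Hochberg adjustment called none of the 33 members at an adjusted p of 0.05, as it called 0% of all genes in either direction, the lowest adjusted p of any gene being 0.107. DESeq2 called 1 member lower, Casq1, and none higher, where it called 1.51% of all genes lower and 4.55% higher. Its count of members depended on single libraries, and so did its count of all genes, 217 lower and 652 higher with all libraries. Without caIKK2EC 2 it called 5 lower (Cacnb2, Kcnmb1, Kcnj8, Trpm4 and Casq1) and 3 higher (Kcnmb4, Piezo1 and Atp2b1). All genes called were then 707 lower and 1035 higher. Without Control 1 it called 4 lower (Kcnma1, Kcnmb1, Itpr1 and Casq1), where 364 of all genes were lower and 749 higher. Without Control 2 or caIKK2EC 1 it called Atp2a2 and Casq1, where 227 and 407 of all genes were lower. Casq1 alone was called without each of the other 4 libraries, where 33 to 72 of all genes were lower. At an unadjusted edgeR p under 0.05, 9 members were lower, or 27.3%, where the share of all genes was 7.47%, and 1 member was higher, where that share was 9.66%. The 9 were Cacna1c, Cacnb2, Kcnma1, Kcnmb1, Kcnj8, Trpm4, Itpr1, Atp2a2 and Casq1, with log2 fold changes of -1.86 to -0.45 and adjusted p of 0.107 to 0.263. The groups did not overlap in Casq1 and Cacna1c, both lower in caIKK2EC, where 3.22% of all genes were lower without overlap, and no member was higher without overlap, where 7.01% of all genes were. Members lower without overlap numbered 5 without Control 1, 6 without caIKK2EC 2, 4 without caIKK2EC 4 and 1 without caIKK2EC 5. The share of all genes was not worked out for these sets, and fewer libraries make a lack of overlap easier to reach.

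The difference rested in large part on Control 3, which had the highest level of all 8 libraries in 20 of the 34 members. Without it the median was -0.14 in place of -0.32, and 1 member, Casq1, stayed lower at an unadjusted p under 0.05, while Trpv2 (0.31) and Piezo1 (0.28) were higher at that level. For this setting, the share of all genes at that level was not worked out. In the other direction, caIKK2EC 2 had the highest contractile sum of its group. It had the highest caIKK2EC level in 8 of the 34 members, near an even share among 5 libraries. Without caIKK2EC 2 edgeR called 3 members lower, Cacnb2, Kcnj8 and Casq1, along with 230 genes higher and 129 lower in all. With age as a covariate edgeR called 5, Cacna1c, Kcnma1, Kcnmb1, Abcc9 and Casq1, and 407 and 254 genes in all. At 19 weeks the only Control in that fit is Control 3, so these calls are not independent of it. With lane as a covariate the comparison was that of caIKK2EC 1 with the 3 Controls, because lane 8 held no Control. It therefore cannot separate lane from that 1 library, and gave a median of -0.59 and a Casq1 value of -2.27. caIKK2EC 1 had the lowest level of all libraries in 14 members and the lowest contractile sum. How often each library was highest or lowest over all genes was not worked out, so these counts may not be particular to the members.

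**Figure D2:**
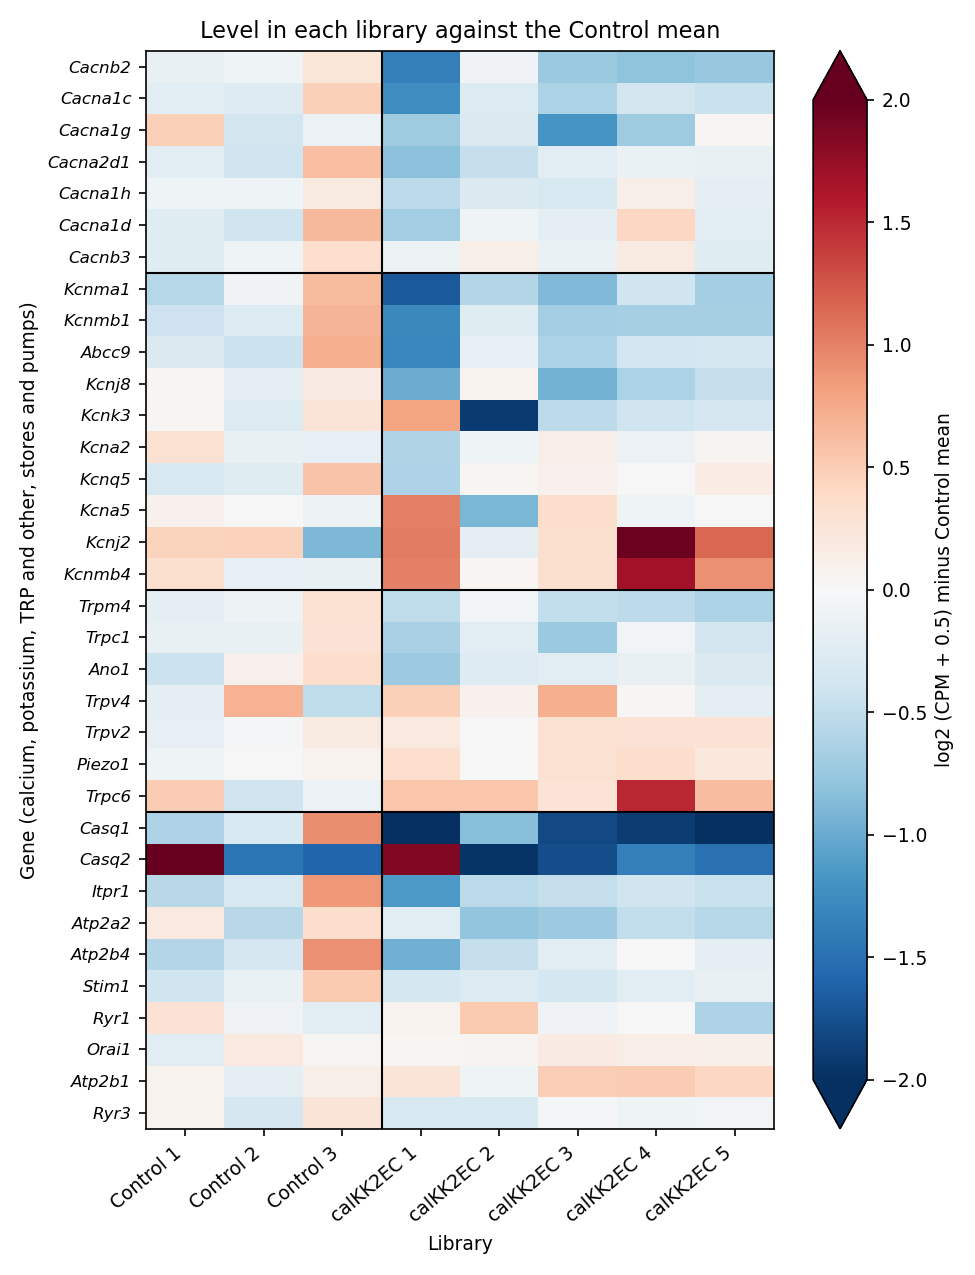
Each row is a member and each column a library, and colour gives log2(CPM + 0.5) minus the Control mean, blue where lower and red where higher, for all 34 members. Control 3 is high across most calcium channel, potassium channel and store genes, and caIKK2EC 1 is low in many of them.

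Among the calcium channels, the pore-forming subunit of the L-type channel, Cacna1c, was lower in every caIKK2EC library than in every Control. Cacna1c (ENSMUSG00000051331, GRCm38 chr6:118587240-119196418, minus strand), whose product Cav1.2 is the main route of voltage-driven calcium entry in smooth muscle, was at 61.9, 60.1 and 101 CPM in Controls 1 to 3 and 30.3, 59.3, 46.5, 56.1 and 52.9 CPM in caIKK2EC 1 to 5. The gap was narrow, since caIKK2EC 2 lay just under Control 2, and caIKK2EC 1 was by far the lowest. With the stricter filter, and without caIKK2EC 5, the set had 1 member lower without overlap in place of 2. Neither setting adds a library, so for 1 of the 2 the separation depended on scaling. Means were 74.2 ± 22.9 CPM in Controls (SD, n = 3) and 49.0 ± 11.5 CPM in caIKK2EC (SD, n = 5), a log2 fold change of -0.60 (SE 0.23, adjusted p 0.237 in edgeR). It was -0.31 on the log2 scale without Control 3.

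The auxiliary subunits of these channels differed among themselves. Cacnb2 and Cacnb3 encode beta subunits, which bring the pore to the membrane, and Cacna2d1 encodes an alpha2delta subunit, which raises its surface level. Cacnb3 (ENSMUSG00000003352, chr15:98630840-98644529, plus strand) was at 43.2, 48.5 and 64.6 CPM in Controls 1 to 3 and 47.9, 55.6, 46.5, 58.5 and 43.4 CPM in caIKK2EC 1 to 5. Its groups overlapped almost entirely, with a log2 fold change of -0.048 (SE 0.15, adjusted p 0.911 in edgeR), and it turned to 0.14 without Control 3. Cacna2d1 (ENSMUSG00000040118, chr5:15934691-16374511, plus strand) was at 75.1, 65.6 and 132 CPM in Controls 1 to 3 and 48.6, 63.0, 75.1, 78.9 and 77.9 CPM in caIKK2EC 1 to 5. Control 3 stood far above the other 7 libraries, which overlapped, and the log2 fold change of -0.40 (SE 0.24, adjusted p 0.416 in edgeR) was -0.034 without it. Cacnb2, described in full because of its value, was at 17.9, 18.8 and 23.8 CPM in Controls 1 to 3 and 7.42, 19.1, 11.7, 11.2 and 11.6 CPM in caIKK2EC 1 to 5. Here 4 of the 5 caIKK2EC libraries lay below every Control and caIKK2EC 2 lay among them, with a log2 fold change of -0.72 (SE 0.26, adjusted p 0.203 in edgeR). Without caIKK2EC 2 it was -0.94, one of the 3 members edgeR then called.

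The other pores were Cacna1d, a second L-type subunit, and the T-type subunits Cacna1g and Cacna1h, which open at more negative potentials. Their group ranges overlapped in all 3. Cacna1d averaged 22.1 ± 9.58 CPM in Controls (SD, n = 3) and 19.4 ± 5.51 CPM in caIKK2EC (SD, n = 5), and its log2 fold change of -0.19 turned to 0.22 without Control 3. Cacna1g averaged 9.33 ± 3.09 and 6.20 ± 2.16 CPM, with a log2 fold change of -0.59, and Cacna1h averaged 5.78 ± 0.679 and 4.87 ± 0.908 CPM, with -0.24. Exons of Cacna1d overlap those of Chdh and exons of Cacna1h overlap those of Tpsg1, and no source used here says whether counting used the strand.

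Of the 10 potassium channel genes 7 had a log2 fold change below 0, and genes of 1 type went both ways. The large-conductance calcium-activated channel, which opposes contraction when calcium rises, had lower mean levels of its pore Kcnma1 and of its smooth muscle subunit Kcnmb1, which raises its calcium sensitivity. Kcnmb1 (ENSMUSG00000020155, chr11:33963013-33973641, plus strand) was at 129, 142 and 277 CPM in Controls 1 to 3 and 69.7, 145, 106, 108 and 108 CPM in caIKK2EC 1 to 5. Control 3 was about double the other Controls, 4 caIKK2EC libraries lay below every Control, and caIKK2EC 2 lay just above Control 2. The log2 fold change was -0.77 (SE 0.27, p 0.0192, adjusted p 0.206 in edgeR) and -0.34 without Control 3. Kcnma1, chosen after its values were seen, was at 25.3, 35.9 and 58.5 CPM in Controls 1 to 3 and 11.5, 24.8, 20.2, 28.4 and 23.3 CPM in caIKK2EC 1 to 5. Control 3 was highest and caIKK2EC 1 lowest here too, caIKK2EC 4 lay above Control 1, and the log2 fold change was -0.88 (SE 0.31, adjusted p 0.196 in edgeR), or -0.50 without Control 3. The other beta subunit in the set, Kcnmb4, best known from brain, was the 1 member higher at an unadjusted p under 0.05. It was at 0.519, 0.222 and 0.229 CPM in Controls 1 to 3 and 1.13, 0.337, 0.512, 2.10 and 1.03 CPM in caIKK2EC 1 to 5, from 5 to 59 reads a library. The groups overlapped at these low levels, with caIKK2EC 4 highest, and the log2 fold change was 1.64 (SE 0.66, adjusted p 0.249 in edgeR).

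The vascular ATP-sensitive potassium channel joins the pore Kir6.1, from Kcnj8, with the regulatory subunit SUR2, from Abcc9, and links membrane potential to metabolism in muscle and pericytes. Abcc9 (ENSMUSG00000030249, chr6:142587862-142702315, minus strand) was at 266, 239.9 and 532 CPM in Controls 1 to 3 and 130.4, 288, 209, 249 and 255 CPM in caIKK2EC 1 to 5. Control 3 was again near double the other Controls, caIKK2EC 1 was lowest, and the remaining 6 libraries overlapped, with a log2 fold change of -0.61 (SE 0.30, adjusted p 0.332 in edgeR) and -0.16 without Control 3. Kcnj8, chosen after its values were seen, was at 49.8, 42.3 and 54.7 CPM in Controls 1 to 3 and 24.2, 51.3, 25.0, 31.1 and 34.8 CPM in caIKK2EC 1 to 5. Control 3 did not stand apart in this gene, 4 caIKK2EC libraries lay below every Control, and caIKK2EC 2 lay within the Control range. The log2 fold change was -0.56 (SE 0.23, adjusted p 0.262 in edgeR), and -0.47 without Control 3. Summed pericyte markers (6 genes, Pdgfrb, Rgs5 and Notch3 among them) were 1373 to 3079 CPM in Controls and 1097 to 1655 CPM in caIKK2EC, highest in Control 3. The markers were divided: 4 had a log2 fold change below 0, while Rgs5 (0.31) and Notch3 (0.17) were above 0. Their part in the Abcc9 and Kcnj8 results was not tested.

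The remaining potassium channels overlapped between groups in every case. Kcna2 and Kcna5 encode voltage-gated Kv1 pores and Kcnq5 a Kv7 pore, channels that limit depolarization, and their log2 fold changes were -0.13, 0.23 and -0.11, with edgeR adjusted p of 0.794, 0.822 and 0.891. Kcnq5 turned to 0.27 without Control 3, Kcna2 to 0.069 without Control 1, and Kcna5 to -0.10 without caIKK2EC 1. Kcnj2 encodes the inward rectifier Kir2.1, present in endothelium and muscle, and averaged 4.93 ± 2.40 CPM in Controls (SD, n = 3) and 9.72 ± 5.80 CPM in caIKK2EC (SD, n = 5), with a log2 fold change of 0.98 (SE 0.52, adjusted p 0.368 in edgeR). Its caIKK2EC libraries ranged from 3.88 to 18.9 CPM.

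**Figure D3:**
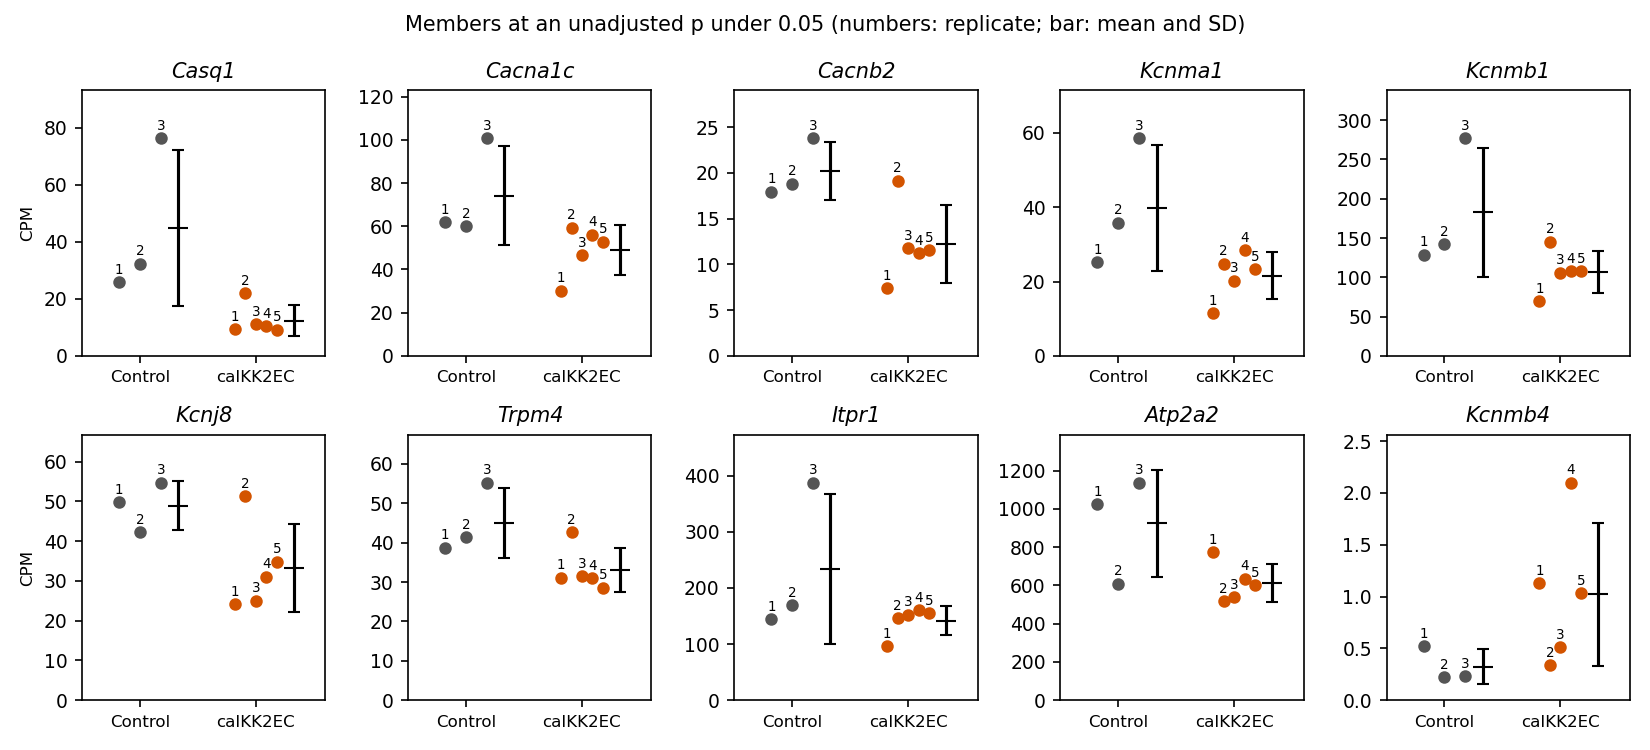
CPM on a linear axis is plotted by library for the 10 members at an unadjusted p under 0.05, each point a library with its replicate number and each bar the group mean and SD. The groups do not overlap in Casq1 and Cacna1c, and Control 3 is the highest point in all panels but Kcnmb4.

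TRP and other channels were divided, 3 with a lower and 4 with a higher mean in caIKK2EC. Piezo1, which opens on stretch and senses blood flow in endothelium, was the member of this class with the highest level per length. Piezo1 (ENSMUSG00000014444, chr8:122481698-122551329, minus strand) was at 193, 208 and 217 CPM in Controls 1 to 3 and 260.2, 207, 254, 262 and 238 CPM in caIKK2EC 1 to 5. In 4 of 5 caIKK2EC libraries it was above every Control, and caIKK2EC 2 lay among the Controls, with a log2 fold change of 0.24 (SE 0.12, p 0.0680, adjusted p 0.331 in edgeR). Piezo1 exons overlap those of Ctu2. Endothelial and macrophage marker sums, given above, were also higher on average in caIKK2EC, though 4 of the 10 endothelial markers had a log2 fold change below 0. The part of these markers in the Piezo1 value was not tested.

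Ano1 encodes TMEM16A, a chloride channel opened by calcium that depolarizes smooth muscle. Ano1 (ENSMUSG00000031075, chr7:144588549-144751974, minus strand) was at 83.2, 119 and 143 CPM in Controls 1 to 3 and 67.4, 93.7, 96.4, 102 and 92.1 CPM in caIKK2EC 1 to 5. The groups overlapped, with caIKK2EC 1 lowest and Control 3 highest, at a log2 fold change of -0.35 (SE 0.18, adjusted p 0.366 in edgeR). Trpm4, a cation channel opened by calcium, was chosen after its values were seen and was at 38.7, 41.3 and 55.2 CPM in Controls 1 to 3 and 31.1, 42.7, 31.6, 30.9 and 28.6 CPM in caIKK2EC 1 to 5. Except for caIKK2EC 2, its caIKK2EC libraries were below every Control, with a log2 fold change of -0.45 (SE 0.16, adjusted p 0.206 in edgeR), and -0.28 without Control 3.

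The canonical TRP channels Trpc1 and Trpc6 pointed in opposite directions, at log2 fold changes of -0.44 and 0.86 (edgeR adjusted p 0.382 and 0.308). Trpc6, opened by diacylglycerol after receptor activation and the member with the CArG box printed above, was at 2.81, 1.26 and 1.65 CPM in Controls 1 to 3 and 2.91, 2.91, 2.31, 6.09 and 3.07 CPM in caIKK2EC 1 to 5. Its groups overlapped, since Control 1 lay above caIKK2EC 3, and caIKK2EC 4 alone was far above the rest. Trpv2, found in muscle and macrophages, averaged 61.1 ± 7.25 CPM in Controls (SD, n = 3) and 71.0 ± 6.12 CPM in caIKK2EC (SD, n = 5), a log2 fold change of 0.22 (SE 0.12, adjusted p 0.372 in edgeR). Trpv4, an endothelial dilator channel, averaged 26.1 ± 12.0 and 29.4 ± 7.80 CPM, and its log2 fold change of 0.17 turned to -0.060 without Control 3.

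Among calcium stores and pumps, Casq1 had the largest difference of the set and was the 1 member DESeq2 called with all 8 libraries. Casq1 (ENSMUSG00000007122, chr1:172209894-172219868, minus strand) encodes calsequestrin 1, the calcium buffer of the sarcoplasmic reticulum that is best known from skeletal muscle. It was at 25.9, 32.3 and 76.2 CPM in Controls 1 to 3 and 9.29, 22.0, 11.1, 10.4 and 9.25 CPM in caIKK2EC 1 to 5. Every caIKK2EC library lay below every Control, caIKK2EC 2 was the closest to them, and Control 3 was the highest. Means were 44.8 ± 27.4 CPM in Controls (SD, n = 3) and 12.4 ± 5.40 CPM in caIKK2EC (SD, n = 5). The log2 fold change was -1.86 (SE 0.38), or 0.276 of the Control level, with p 6.81e-04 and an adjusted p of 0.107 in edgeR and 4.90e-04 in DESeq2. The authors' deposited table gives it a log2 fold change of -1.86 with an adjusted p of 0.00049.

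The DESeq2 call for Casq1 did not depend on any one library: with each left out in turn the log2 fold change was -2.17 to -1.22 and the adjusted p 2.06e-07 to 0.0257. The value nearest to the threshold came without Control 3, where the edgeR log2 fold change was -1.23 with an adjusted p of 0.261. The 14 skeletal markers summed to 9.04 to 133 CPM in Controls and 6.89 to 70.0 CPM in caIKK2EC, the high sums being those of Control 1 and caIKK2EC 1. Of the 10 tested, 8 had a log2 fold change below 0, with a median of -0.97. Ckm was at 87.6, 1.55 and 1.70 CPM in Controls and 43.9, 0.969, 0.726, 0.534 and 0.388 CPM in caIKK2EC, and Acta1 was high in the same 2 libraries and at most 1.71 CPM in the others. Both are also heart genes, high where the heart markers below are high. Mylpf, a light chain of fast skeletal muscle, was at 1.15, 1.07 and 1.06 CPM in Controls 1 to 3 and 0.971, 0.885, 0.598, 0.142 and 0.259 CPM in caIKK2EC 1 to 5. Like Casq1, it was lower in every caIKK2EC library than in every Control, at levels near 1 CPM, while Myh4, the main fast myosin, was at 0 in all 8 libraries. Tnni2, another of the 14 skeletal markers, went the other way, from a mean of 0.983 CPM in Controls to 1.86 CPM in caIKK2EC. Its log2 fold change was 0.91 (adjusted p 0.276 in edgeR). The part of skeletal muscle in the Casq1 result was not tested. Exons of 16 of the 34 members overlap another annotated gene. Those of Casq1 overlap the antisense gene Gm17224, and no source used here says whether counting used the strand.

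Atp2a2 encodes SERCA2, the pump that returns calcium to the store, and had the highest level per length of the 34. Atp2a2 (ENSMUSG00000029467, chr5:122453513-122502225, minus strand) was at 1025, 609 and 1138 CPM in Controls 1 to 3 and 774, 518, 538, 635 and 601 CPM in caIKK2EC 1 to 5. Control 1 and Control 3 were high, but Control 2 was within the caIKK2EC range, and caIKK2EC 1 was the highest of its group. The log2 fold change was -0.59 (SE 0.21, p 0.0201, adjusted p 0.207 in edgeR). Without the 2 libraries that carried heart transcripts, described below, it was -0.60. Of the Controls then left, only Control 3 lay above the caIKK2EC range.

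Plasma membrane calcium pumps went in different directions. Atp2b4 (ENSMUSG00000026463, chr1:133699457-133801041, minus strand), encoding PMCA4, was at 166, 197 and 469 CPM in Controls 1 to 3 and 128, 178, 215, 247 and 219 CPM in caIKK2EC 1 to 5. Apart from Control 3, far above the other 7 libraries, the groups overlapped and 4 of the 5 caIKK2EC libraries were above Control 1. Its log2 fold change of -0.49 (SE 0.33, adjusted p 0.478 in edgeR) turned to 0.12 without Control 3. Atp2b1, encoding PMCA1, averaged 113 ± 13.2 CPM in Controls (SD, n = 3) and 142 ± 22.6 CPM in caIKK2EC (SD, n = 5), a log2 fold change of 0.33 (SE 0.15, adjusted p 0.313 in edgeR).

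Release and refilling genes had small or library-bound differences. Itpr1, the inositol trisphosphate receptor of muscle and endothelium, was chosen after its values were seen and was at 145, 169.5 and 388 CPM in Controls 1 to 3 and 95.8, 146, 152, 159.8 and 155 CPM in caIKK2EC 1 to 5. Control 3 was more than double every other library, and without it the log2 fold change of -0.72 (SE 0.30, adjusted p 0.263 in edgeR) was -0.15. Stim1, the store's calcium sensor, averaged 92.0 ± 32.1 CPM in Controls (SD, n = 3) and 73.5 ± 4.64 CPM in caIKK2EC (SD, n = 5), with a log2 fold change of -0.32. Orai1, the plasma membrane channel that STIM1 opens, averaged 31.1 ± 4.51 CPM in Controls (SD, n = 3) and 33.1 ± 1.16 CPM in caIKK2EC (SD, n = 5), with a log2 fold change of 0.093. The edgeR adjusted p was 0.404 for Stim1 and 0.729 for Orai1. Ryr1, the ryanodine receptor of skeletal muscle, lay between 0.226 and 1.10 CPM and its log2 fold change of -0.00099 had no stable sign.

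Per kilobase of annotated exon, which allows genes to be compared, Atp2a2 stood first at 152 CPM per kb in Controls and 101 in caIKK2EC. Abcc9 (41.3 and 27.0 CPM per kb) and Kcnmb1 (43.6 and 25.6) followed, and their library ranges overlapped with each other but not with that of Atp2a2. Piezo1 (20.8 and 24.6) came next over all libraries, then Atp2b4 (22.6 and 16.1), with overlapping ranges. Casq1 was at 22.96 CPM per kb in Controls, level with Atp2b4, and in caIKK2EC it was at 6.35. The pores Cacna1c (3.50 and 2.31 CPM per kb) and Kcnma1 (2.35 and 1.27) were below Cacnb3 (13.0 and 12.6) and Kcnmb1 but above the other beta subunits, Cacnb2 (1.52 and 0.924) and Kcnmb4 (0.0973 and 0.308). Trpc6, Kcnmb4, Ryr1 and Ryr3 were among the lowest, at 0.377, 0.0973, 0.0285 and 0.0123 CPM per kb in Controls.

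Contractile markers were also lower in caIKK2EC, so some members are given as CPM per 1000 CPM of the 12 summed contractile markers, a measure chosen after the data were seen. The mean log2 of that sum was 0.79 lower in caIKK2EC, so this scale raises the log2 difference of every gene by the same 0.79, and a turn of sign between the scales says nothing about a gene by itself. The measure serves to show which libraries stand apart from the contractile sum.

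Per 1000 contractile CPM, Casq1 was at 1.18, 1.26 and 1.81 in Controls 1 to 3 and 0.783, 0.886, 0.668, 0.654 and 0.569 in the 5 caIKK2EC libraries. Every caIKK2EC library was below every Control on this scale too, with a log2 difference of -0.94. It was the 1 member lower without overlap, where 0.102% of all genes were. Kcnmb1 was at 5.90, 5.54 and 6.57 in Controls 1 to 3 and 5.88, 5.86, 6.39, 6.81 and 6.62 in the 5 caIKK2EC libraries. The BK subunit was nearly constant over the 8 libraries, including Control 3 and caIKK2EC 1, at a log2 difference of 0.08. Cacna1c was at 2.83, 2.34 and 2.39 in Controls 1 to 3 and 2.55, 2.39, 2.81, 3.54 and 3.25 in the 5 caIKK2EC libraries. Its groups overlapped, with a log2 difference of 0.20. Members higher without overlap on this scale were 2, Cacnb3 and Kcnq5, where 17% of all genes were.

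**Figure D4:**
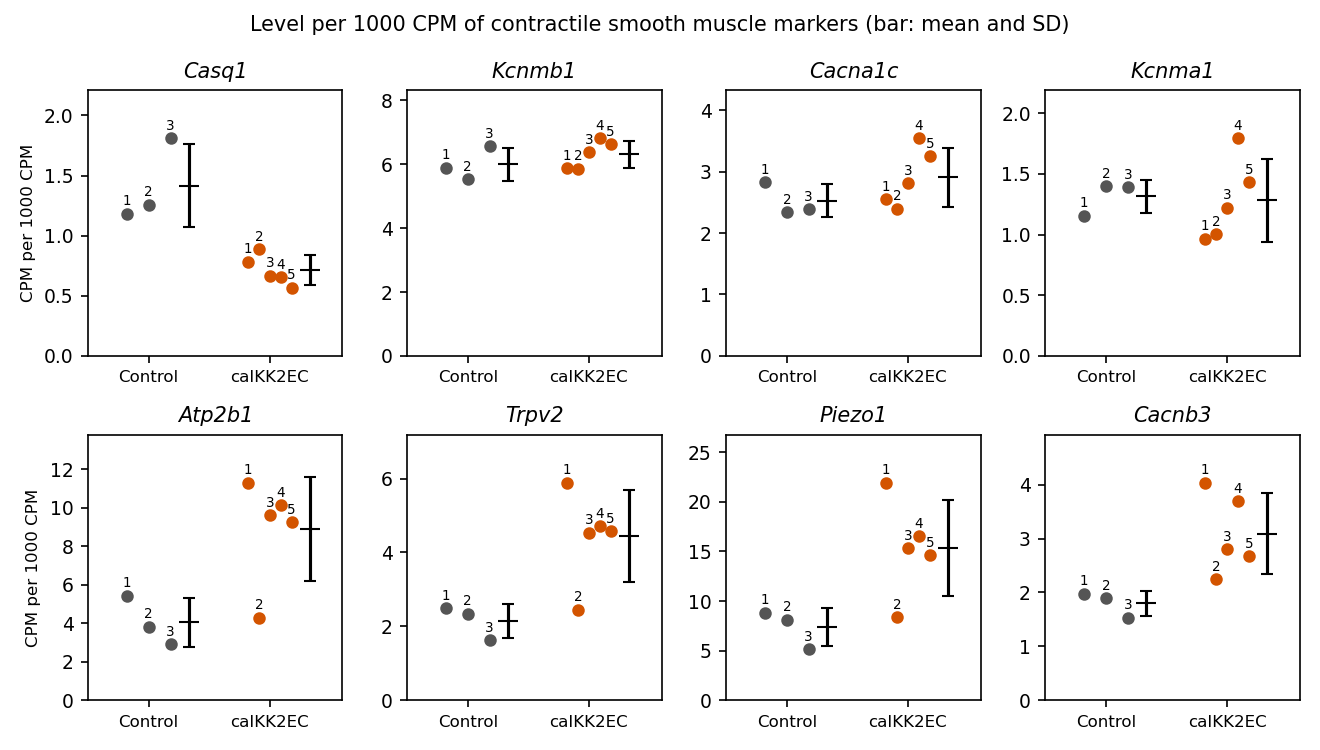
Member CPM per 1000 CPM of summed contractile markers is plotted by library for 8 members chosen after values were seen, each point a library with its replicate number and each bar the group mean and SD. Casq1 is lower in all 5 caIKK2EC libraries than in the 3 Controls, and Kcnmb1 stays between 5.54 and 6.81.

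Casq2 and Kcnk3 were high in libraries that also had high levels of heart or brown fat genes, and both were chosen after their values were seen. Casq2, the heart calsequestrin, was at 41.3, 1.33 and 1.19 CPM in Controls 1 to 3 and 17.7, 0.801, 0.982, 1.46 and 1.29 CPM in caIKK2EC 1 to 5. It was high in Control 1 and caIKK2EC 1 and near 1 CPM in the other 6. Heart muscle markers (10 genes, Myh6, Myl7 and Nppa among them) summed to 2689 CPM in Control 1, to 1323 CPM in caIKK2EC 1, but to 76.4 to 162 CPM in the other 6 libraries. Myh6 was at 902 and 480 CPM in these and at 5.05 to 23.02 CPM in the others, and Pln, an inhibitor of SERCA abundant in heart, at 279, 4.55 and 8.85 CPM in Controls 1 to 3 and 138, 4.89, 14.1, 10.5 and 10.7 CPM in caIKK2EC 1 to 5. The log2 fold change of Casq2 was -1.72 (SE 1.42, adjusted p 0.581 in edgeR), 1.84 without Control 1, -3.67 without caIKK2EC 1 and -0.14 without both. With both left out, the median over members was -0.22, and 10 members were lower and 2 higher at an unadjusted p under 0.05. The share of all genes at that level was not worked out for this setting.

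Kcnk3 encodes TASK-1, a background potassium channel of vascular muscle that brown fat also expresses. It was at 74.8, 60.8 and 87.7 CPM in Controls 1 to 3 and 128, 19.1, 51.0, 55.5 and 58.4 CPM in caIKK2EC 1 to 5. The highest and the lowest library were both caIKK2EC, numbers 1 and 2, and the log2 fold change was -0.26 (SE 0.46, adjusted p 0.823 in edgeR). Ucp1, the brown fat uncoupling protein, was at 623, 782 and 844 CPM in Controls 1 to 3 and 1512, 37.5, 382, 247 and 404 CPM in caIKK2EC 1 to 5, with the same highest and lowest library. Summed fat markers (7 genes, Adipoq, Plin1 and Cidec among them) were 1361 to 1844 CPM in Controls and 266 to 3078 CPM in caIKK2EC. The Kv1 gene Kcna5 was also highest in caIKK2EC 1 (7.27 CPM) and lowest in caIKK2EC 2 (1.56 CPM). The part of fat in these levels was not tested.

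**Figure D5:**
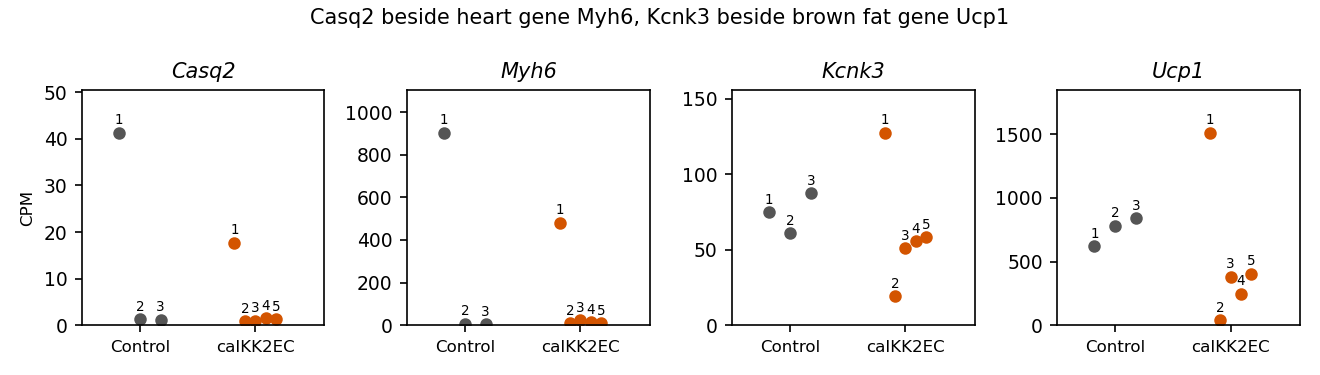
CPM by library on a linear axis, with the replicate number at each point, is shown for Casq2 beside the heart gene Myh6 and for Kcnk3 beside the brown fat gene Ucp1. Casq2 and Myh6 are high in Control 1 and caIKK2EC 1, and Kcnk3 and Ucp1 are highest in caIKK2EC 1 and lowest in caIKK2EC 2.

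Related genes outside the set were taken from fixed lists, of which edgeR called no gene. DESeq2 called 1.51% of all genes lower and 4.55% higher, and unadjusted edgeR p under 0.05 covered 7.47% and 9.66%. Of 10 other calcium channel subunits tested, DESeq2 called none, and none had an unadjusted edgeR p under 0.05. Of 22 other potassium channel genes, DESeq2 called 1 higher and 1 lower, and 7 were lower and 2 higher at an unadjusted p under 0.05. Kcnab2, a beta subunit of Kv1 channels, was at 30.7, 31.5 and 27.7 CPM in Controls 1 to 3 and 46.2, 38.3, 51.1, 45.0 and 43.6 CPM in caIKK2EC 1 to 5, and every caIKK2EC library was above every Control (log2 fold change 0.58, DESeq2 adjusted p 0.00127, edgeR 0.107). Kcnj15, an inward rectifier, was at 44.0, 66.4 and 98.1 CPM in Controls 1 to 3 and 29.5, 42.9, 37.7, 47.5 and 45.1 CPM in caIKK2EC 1 to 5. Its groups overlapped, and DESeq2 placed it just past the threshold (log2 fold change -0.78, DESeq2 adjusted p 0.0487, edgeR 0.159).

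Among 21 other TRP, mechanosensitive and ion channels, 2 were lower and 2 higher at an unadjusted p under 0.05. DESeq2 called 1, the ATP-gated channel gene P2rx4, at 154, 153 and 95.7 CPM in Controls 1 to 3 and 197, 172, 215, 201 and 194 CPM in caIKK2EC 1 to 5. All 5 caIKK2EC libraries were above all 3 Controls (log2 fold change 0.54, DESeq2 adjusted p 0.0399, edgeR 0.162). Among 24 other store and pump genes, 4 were lower and 1 higher at an unadjusted p under 0.05. DESeq2 called 1, Jph2, whose product junctophilin 2 ties the store to the plasma membrane, at 313, 454 and 959 CPM in Controls 1 to 3 and 205, 336, 300.0, 249.7 and 243 CPM in caIKK2EC 1 to 5. Groups overlapped through caIKK2EC 2, and Control 3 was the highest (log2 fold change -1.11, DESeq2 adjusted p 0.0172, edgeR 0.144). Of 30 contraction signalling genes, 8 were lower and none higher at an unadjusted p under 0.05, and DESeq2 called 3 lower. They were Ppp1r14a, an inhibitor of myosin phosphatase (log2 fold change -1.001, DESeq2 adjusted p 0.0271), the kinase gene Rock1 (-0.60, 0.0434) and the adrenergic receptor gene Adra1d (-1.26, 0.0362), each with an edgeR adjusted p of 0.151 to 0.171.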

How the data were processed

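Whole-aorta poly(A) RNA of 8 mice (3 Control, 5 caIKK2EC) was read as directional single reads of 50 nt, per the labels' protocols. The labels give each library the sex and age of a mouse and mention no pooling.

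The authors deposited raw counts per gene symbol. STAR 2.7.0e, FastQC 0.11.5, DESeq2 1.22.2 and the build GRCm38 are named in the submitters' processing notes. The sources used here do not name the counting program, the annotation or the strand setting. The authors' deposited comparison table holds mean normalized signal, log2 fold changes, a test score and p-values, per its header, and 868 of its 869 calls were shared by name with the DESeq2 calls made here. The normalized and regularized columns of the same 8 libraries were not used. Of the gene names, 27 had been turned into dates, none a member, and 5938 genes had a total count of 0.

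edgeR 4.0.16 (R 4.3.3) was run with TMM scaling, its default filter by group and a quasi-likelihood fit on group alone. P-values were adjusted over all 14679 genes at a threshold of 0.05. DESeq2 1.42.0 was run on genes with a total of at least 10 counts and gave an adjusted p for 14340 of them. Among the members, Ryr3 and Casq2 were given none. Exact permutation tests, two-sided, were made on log2(CPM + 0.5) over all 56 splits. Their smallest p, 0.0357, is fixed for members whose groups do not overlap, so it adds nothing to that observation. Methods were tested on simulated data. Coordinates and exon lengths are from GENCODE M21 on GRCm38.

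The members and lists were chosen with earlier results of these data known. All-library values are given by rule for members called or without overlap and for the 2 of each class with the highest CPM per kb, and other members given in full were chosen after their values were seen. No pair of libraries was alike within sampling noise (lowest chi-square per degree of freedom 17.6). Alternatives were another tool and scaling, other filters, sex, age or lane as covariates, females only, a replicate block and leaving out libraries.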

Additional observations from a re-analysis of the deposited data

Results flagged for a closer look

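In 7 of the 34 caIKK2EC groups tested, 1 library lay far from the other 4 by Dixon's test at its 95% critical value of 0.71 for 5 samples. Chance flags about 1 in 20 groups, and members share their libraries. The library was caIKK2EC 1 in 4 of the 7. It was low in Kcnq5 (2.64 CPM), Ano1 (67.4 CPM) and Itpr1 (95.8 CPM), and this library had the lowest contractile marker sum. It was high in Casq2, at 17.7 CPM where the other 4 caIKK2EC libraries had 0.80 to 1.46 CPM, and this library carried heart transcripts. caIKK2EC 2, with the highest contractile sum of its group, was high in Trpm4 (42.7 CPM) and in Casq1, at 22.0 CPM where the others had 9.25 to 11.1 CPM. caIKK2EC 4 was high in Trpc6, at 6.09 CPM. The part of tissue makeup in these values was not tested.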

How the results depend on the processing

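edgeR's count of 0 genes past the threshold became 407 higher and 254 lower with age as a covariate, and DESeq2 gave 652 and 217. Members past it went from 0 to 5 lower with age and 1 lower in DESeq2. Leaving out 1 library at a time gave 0 to 230 genes higher, 0 to 129 lower and 0 to 3 members lower, the upper ends without caIKK2EC 2. Control 3 was the only male, so sex as a covariate and females only make the same comparison as leaving out Control 3. The 9 members lower at an unadjusted p under 0.05 were 1 with sex as a covariate or in females only and 16 with age (1 to 11 with 1 library left out). The 1 higher was 4 in DESeq2, 3 with no filter, 0 with age, and 2 with the stricter filter (1 CPM in 3 libraries), with sex, in females only or without the heart-marker libraries (0 to 5 with 1 left out). Members without overlap were 6 lower and 3 higher without the heart-marker libraries, 1 higher in females only and 1 lower under the stricter filter (1 to 6 lower and 0 to 3 higher with 1 left out). Shares of all genes without overlap or at an unadjusted p under 0.05 were not worked out for these settings. With lane as a covariate, which leaves caIKK2EC 1 alone against the Controls, the median was -0.59 over all members. It was -0.81 for calcium channels, -0.71 for potassium channels and -0.26 for stores and pumps. Sex as a covariate gave -0.060 for TRP and other channels and -0.15 for stores and pumps, and females only gave -0.060 and -0.15. With 1 library left out these 2 medians ranged over -0.060 to 0.22 and -0.67 to -0.15. The causes were not tested.

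Signs of 10 members turned. With 1 library left out, log2 fold changes ranged as follows: Cacna1d -0.37 to 0.22, Cacnb3 -0.15 to 0.14, Kcna2 -0.21 to 0.069, Kcna5 -0.10 to 0.43, Kcnq5 -0.27 to 0.27, Trpv4 -0.060 to 0.63, Ryr1 -0.29 to 0.31, Atp2b4 -0.74 to 0.12 and Casq2 -3.67 to 1.84. With sex as a covariate and in females only, Cacna1d was 0.22, Cacnb3 0.14, Kcnq5 0.27, Trpv4 -0.060 and Atp2b4 0.12. Without the heart-marker libraries Kcna2 was 0.17, Kcna5 -0.048, Trpv4 -0.0047 and Ryr1 0.29. With lane as a covariate, again caIKK2EC 1 alone against the Controls, Kcnk3 was 0.78, Casq2 0.27 and Ryr1 0.080. Ryr1, at under 2 CPM, was 0.0032 in DESeq2, 0.00071 with its size factors, 0.015 with no filter and 0.058 with age.

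Whether replicate numbers 1 to 3 pair the groups was not settled. Same-numbered libraries correlated at 0.35, 0.05 and 0.23, and differently numbered ones at -0.27 to 0.10. Libraries 1 and 3 of each group correlated best with their own number in the other group, while caIKK2EC 2 correlated best with Control 3. With the replicate block on these 6 libraries, no gene was called and 9 members were lower and 0 higher at an unadjusted p under 0.05, against 3 lower and 0 higher without the block. For neither fit was the share of all genes at that level worked out. Ryr1 was 0.32 with the block and 0.32 without.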
